A study of Gallus gallus with 9 samples.

Results

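The genes of the hair cell mechanotransduction channel complex and of the tip link were followed along the chick basilar papilla, the auditory epithelium of birds. They were *TMC1*, *TMC2*, *TMIE*, *LHFPL5*, *CIB2*, *PCDH15* and *CDH23*, chosen by symbol, and each matched 1 row, so they are 7 of the 24880 genes in the deposited FPKM table. FPKM is a fragment count scaled by transcript length and by library size. Levels can therefore be set side by side between genes only as far as the annotated transcript lengths hold, which was not checked. Between samples FPKM compares shares of a library, which also depend on the other RNA in a piece. The samples were base, middle and apex pieces of the basilar papilla of untreated chickens at post-hatch day 1, with 3 replicates each (9 libraries), and each replicate pooled 8 cochleas of 4 chickens. A piece is whole tissue with hair cells, supporting cells, nerve fibers and other cells. In such bulk pieces, fewer cells of a type and less RNA per cell cannot be told apart.

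Hair cells turn sound into current at their stereocilia, the rows of actin-filled projections that form the hair bundle. A fine filament, the tip link, joins the tip of a shorter stereocilium to the side of its taller neighbor, with a cadherin-23 pair (*CDH23*) at the upper end and a protocadherin-15 pair (*PCDH15*) at the lower end. When the bundle is deflected, the tip link pulls on a channel at its lower end. *TMC1* and *TMC2* encode the pore-forming subunits of that channel. *TMIE*, a small transmembrane protein, *LHFPL5*, a tetraspan protein bound to protocadherin-15, and *CIB2*, a calcium- and integrin-binding protein that binds the TMC proteins, are further components, worked out mainly in mouse and zebrafish. In the mouse cochlea *Tmc2* is transcribed early and then declines, while *Tmc1* persists.

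In galGal5 coordinates, counted from 1, *TMC1* (ENSGALG00000015145) lies on chromosome Z from 35808066 to 35867542 and *TMC2* (ENSGALG00000042706) on chromosome 2 from 44470402 to 44496991. *TMIE* (ENSGALG00000005443) lies on the same chromosome 2 from 3314718 to 3335829, *LHFPL5* (ENSGALG00000039170) on chromosome 26 from 93767 to 97080 and *CIB2* (ENSGALG00000026674) on chromosome 10 from 3728160 to 3760952. Both tip link genes are on chromosome 6, *PCDH15* (ENSGALG00000002744) from 6330204 to 6628545 and *CDH23* (ENSGALG00000036824) from 11813371 to 11905029. None of the 7 loci overlapped another gene of the table.

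The pieces differed in their hair cell signal. Of 12 hair cell markers listed, 9 were matched, none of them at 0 in all libraries, and their summed FPKM lay between 94.3 and 165.7 in base libraries, 189 and 311 in middle and 325 and 508 in apex libraries. Each of the 9 passed the test between apex and base (described with *TMC2* below), with ratios of apex to base between 1.89 for *MYO6*, a myosin of the hair bundle base, and 6.89 for *SLC17A8*, the vesicular glutamate transporter of hair cells. Between middle and base 3 of the 9 passed it, against 4.39% of all genes, with ratios from 1.04 for *CABP2* to 4.07 for *SLC17A8*. Between apex and middle 1 of the 9 passed it, against 0.0613% of all genes. Supporting cell markers (9 of 11 matched) summed to between 985 and 1735 in the base, 2184 and 4132 in the middle and 2513 and 3473 in the apex. *TECTB* made up most of each sum, with mean FPKM of 860, 2307 and 2014 in base, middle and apex. *TECTA*, *SOX2*, *PROX1*, *LFNG* and *FGFR3* had higher means in the apex than in the middle, and *TECTB*, *JAG1*, *OTOA* and *HES5* lower ones. Between apex and base 6 of 9 supporting cell, 3 of 4 Schwann cell, 0 of 6 macrophage and 0 of 7 neuron markers tested were called, against 11.8% of all genes. Neuron markers (9 of 9 matched, with *PRPH* at 0) were highest in replicate 2 of every region, with sums of 707, 3074 and 1436 against between 101 and 601 in the other 6 libraries. The otoconial genes *OTOL1* and *OTOP1*, listed as markers of the lagena, the vestibular organ at the far end of the duct, summed to between 1.36 and 4.003 in the base and the middle, to 32.6 in apex replicate 1, and to 8.96 and 9.47 in the other apex libraries. The part of these differences in the results was not tested except where a value is given. The plot of marker sums by library shows them together.

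**Figure D1:**
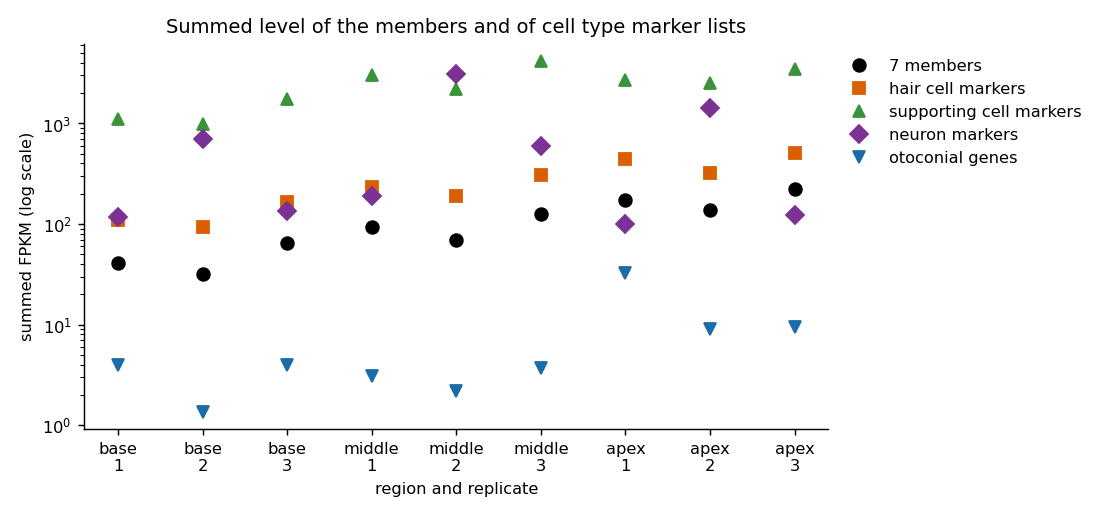
Summed FPKM (log scale) of the 7 members and of lists of hair cell, supporting cell, neuron and otoconial marker genes in each of the 9 libraries, by region and replicate; each point is 1 library. The hair cell markers rise from between 94.3 and 165.7 in the base to between 325 and 508 in the apex, and the neuron markers stand at 707, 3074 and 1436 in replicate 2 of base, middle and apex.

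*TMC2* rose strongly toward the apex, while *TMC1*, the other pore gene, was at its lowest there. *TMC2* had an FPKM of 1.06, 0.332 and 7.50 in base replicates 1 to 3, of 15.5, 10.8 and 21.7 in the middle, and of 58.6, 48.2 and 86.9 in the apex. Every middle library stood above every base library and every apex library above every middle library. Differences between regions were tested in limma on log2(FPKM + 1), over all 9 libraries and the 13045 genes whose mean FPKM reached 1 in any region, and a gene was called where the Benjamini-Hochberg adjusted p was under 0.05 and mean FPKM differed by 1.5 times or more. By this rule *TMC2* rose from base to apex by 4.48 on the log2(FPKM + 1) scale (limma adjusted p = 0.00205, SE 0.61), the highest value of all 13045 genes. From base to middle it rose by 2.52 (limma adjusted p = 0.0393, SE 0.61), and the difference between apex and middle, 1.95, was not called (limma adjusted p = 0.357, or 0.028 with the replicate number as a block, which takes same-numbered libraries as pairs and gave a call). For a trend from base through middle to apex, the exact permutation p (two-sided) was 0.00119, the smallest this test can give. With libraries permuted within replicate numbers the exact p was 0.00926, again the smallest possible. The exact p-values are raw, not adjusted over the 7 members.

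The size of this change rested on base replicate 3. The highest base library of *TMC2* was 22.6 times the lowest, against at most 5.17 times for any of the 9 hair cell markers in the base. The ratio of apex to base was 21.8 over all libraries and 93.0 without base replicate 3, and that of middle to base was 5.41 and 23.1. Between same-numbered libraries, apex was 55.5, 145 and 11.6 times base in replicates 1 to 3. In the 9 fits that each left out 1 library, the adjusted p between apex and base lay between 0.00096 and 0.0119 from limma. All 3 apex libraries had otoconial sums above those of every base and middle library. In apex replicates 2 and 3 this rested on *OTOL1* (6.85 and 6.97), since *OTOP1* (2.11 and 2.49) lay below its 2.62 in middle replicate 3. Between apex and base *OTOL1* was called (limma adjusted p = 0.0175) and *OTOP1* was not (limma adjusted p = 0.103). *OC90*, also listed, was not matched. The part of lagena tissue in the difference of *TMC2* was not tested.

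*TMC1* was low everywhere and lowest in the apex. Its FPKM was 2.53, 2.01 and 3.39 in the base, 2.85, 1.99 and 4.10 in the middle, and 1.63, 1.06 and 1.61 in the apex. All 3 apex libraries lay below all base and all middle libraries, and the base and middle ranges overlapped. Between apex and base the log2 difference was -0.57 (SE 0.22, 95% interval -1.08 to -0.07), which was not called (limma adjusted p = 0.101). With the block, *TMC1* fell by 0.57 and was called (limma adjusted p = 0.00865), and the apex also lay below the middle, with a log2 difference of -0.69 (limma adjusted p = 0.378, or 0.028 with the block). The exact permutation p of the trend was 0.0738 for *TMC1*, and 0.0286 without middle replicate 3.

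**Figure D2:**
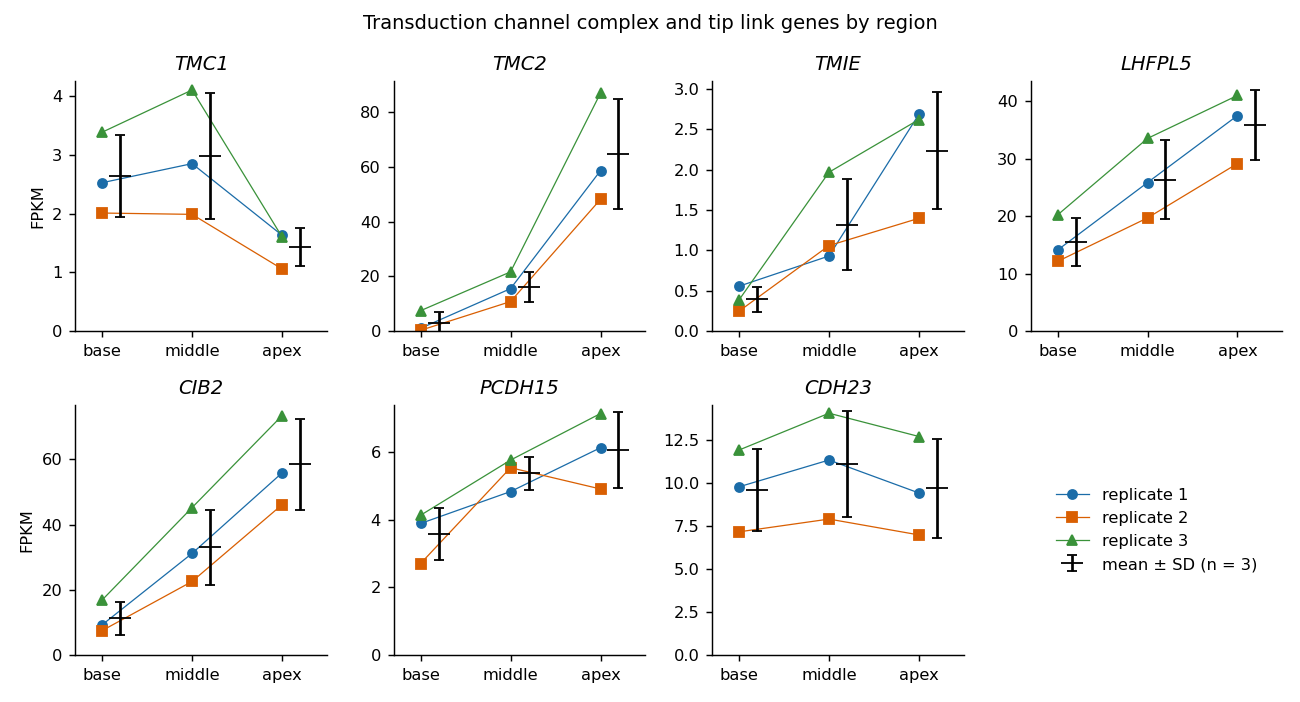
FPKM of each of the 7 genes in base, middle and apex; lines join libraries with the same replicate number, and black bars give the mean and SD of 3 libraries, cut at 0 on the axis. *TMC2* rises from a mean of 2.96 in the base to 64.6 in the apex, *TMC1* stands at 2.64 and 1.43, and *CDH23* stands at 9.60 and 9.68.

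Set against each other within a library, the pore genes differed in order between base and middle. *TMC2* made up 29.5%, 14.2% and 68.9% of the summed FPKM of *TMC1* and *TMC2* in base replicates 1 to 3. In the middle its share was 84.5%, 84.5% and 84.1%, and in the apex 97.3%, 97.8% and 98.2%. *TMC1* was thus the higher of the pair in 2 base libraries and *TMC2* in the other 7 libraries. The ratio of *TMC2* to *TMC1* was 5.39 ± 0.0976 in middle and 45.2 ± 9.13 in apex libraries (SD, n = 3 each), and from 0.165 to 2.21 in the base. The middle libraries agreed on this ratio far more closely than on the level of either gene, which varied 2.00- and 2.06-fold among them. On the log2(FPKM + 1) scale *TMC2* minus *TMC1* went from -0.33 ± 1.13 in base libraries to 2.08 ± 0.09 in middle and 4.72 ± 0.31 in apex libraries, with an exact permutation p of 0.00119 for the trend (n = 3 each). The exact p was 0.00926 when libraries were permuted within replicate numbers, the smallest that this exact test can give, and 0.00357 without any 1 library.

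**Figure D3:**
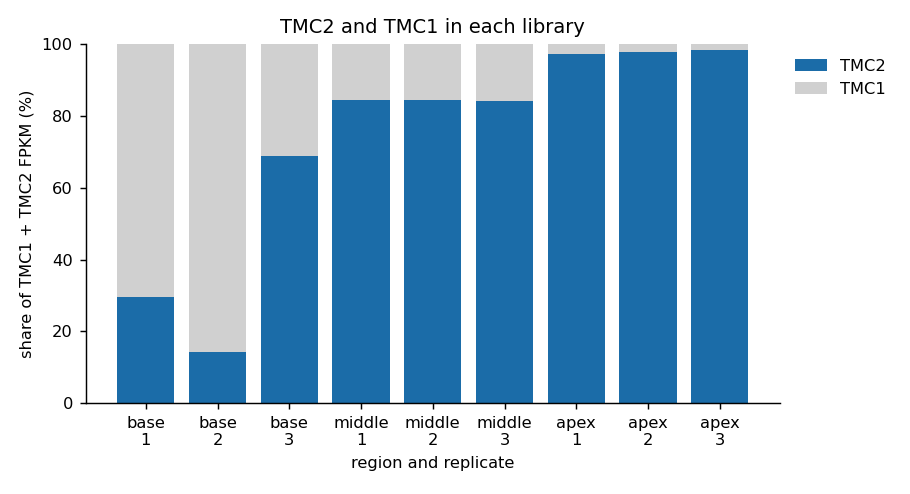
Share (%) of *TMC2* and *TMC1* in their summed FPKM, 1 bar for each of the 9 libraries by region and replicate. The share of *TMC2* runs from 14.2% to 68.9% in the base, from 84.1% to 84.5% in the middle and from 97.3% to 98.2% in the apex.

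*CIB2*, *LHFPL5* and *TMIE* all rose from base to apex. *CIB2* had an FPKM of 9.22, 7.46 and 16.8 in the base, 31.1, 22.5 and 45.2 in the middle, and 55.8, 46.1 and 73.4 in the apex. The 3 regions did not overlap, although the highest middle library came close to the lowest apex library. Its log2 difference was 2.34 between apex and base (limma adjusted p = 0.0021, SE 0.32) and 1.5 between middle and base (limma adjusted p = 0.0292). Between apex and middle it was 0.84 (limma adjusted p = 0.478, or 0.00663 with the block). For the trend the exact permutation p was 0.00119, its smallest value.

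*LHFPL5*, which links the channel to protocadherin-15, had an FPKM of 14.1, 12.1 and 20.2 in the base, 25.9, 19.7 and 33.5 in the middle, and 37.5, 29.2 and 41.0 in the apex. Apex and base did not overlap, and the middle overlapped both. The ratio of apex to base was 2.32, with a log2 difference of 1.18 (limma adjusted p = 0.00837, SE 0.23). Between middle and base the log2 difference of 0.73 had an adjusted p of 0.0834 from limma, 0.0437 without middle replicate 2 and 0.00103 with the block. Same-numbered libraries were close for this gene, with middle over base at 1.83, 1.62 and 1.66 in replicates 1 to 3. For the trend the exact permutation p was 0.00952.

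*TMIE*, which in mouse is needed for the transduction current, was the lowest of the 7 genes in the base. Its FPKM was 0.558, 0.248 and 0.389 in the base, 0.932, 1.06 and 1.97 in the middle, and 2.69, 1.40 and 2.62 in the apex. Every base library lay under every other library, and middle and apex overlapped. The ratio of apex to base was 5.62, close to the 5.23 of *CIB2*, and the log2 difference was 1.19 (limma adjusted p = 0.00835, SE 0.23), since adding 1 to such low values narrows the difference. With 0.1 added in place of 1, *TMIE* was still called. Between middle and base its log2 difference was 0.71 (limma adjusted p = 0.0919, or 0.0287 with the block), with an exact permutation p of 0.00357 for the trend. With a filter that asked for an FPKM of at least 1 in 6 libraries, *TMIE* was not among the genes tested.

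The cadherins of the tip link differed from each other. *PCDH15* had an FPKM of 3.89, 2.70 and 4.13 in the base, 4.83, 5.54 and 5.76 in the middle, and 6.13, 4.91 and 7.14 in the apex. All base libraries lay below all others, while middle and apex overlapped. Its log2 difference between apex and base was 0.63 (limma adjusted p = 0.0235, or 0.0053 with the block, SE 0.16), with a ratio of 1.70. This call was lost without base replicate 1 (0.0532), base replicate 2 (0.07), apex replicate 1 (0.0658) or apex replicate 3 (0.0839 from limma), and with quantile normalization (0.0519). Between middle and base the log2 difference was 0.49 (limma adjusted p = 0.0899, or 0.0209 with the block). For the trend the exact permutation p was 0.00952, and 0.0185 within replicate numbers.

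*CDH23* was not called in any comparison. Its FPKM was 9.76, 7.15 and 11.9 in the base, 11.3, 7.89 and 14.0 in the middle, and 9.40, 6.97 and 12.7 in the apex. The regions overlapped throughout, and the replicates of a region differed by more than the regions did. The log2 difference between apex and base was 0.00 (limma adjusted p = 0.998, SE 0.26), with a 95% interval of -0.59 to 0.59. With the block that interval was -0.14 to 0.14, so a change of 1.5-fold lay outside it on this scale. For the trend the exact permutation p was 1. The ratio of *CDH23* to *PCDH15* had means of 2.68 ± 0.187, 2.07 ± 0.558 and 1.58 ± 0.182 in base, middle and apex (SD, n = 3 each).

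Counted over the complex, 5 of the 7 genes were called higher in the apex than in the base and 0 were called lower, against 7.15% and 4.66%, or 11.8% in either direction, of the 13045 genes tested. *TMC1* was the single member lower in the apex at an unadjusted p under 0.05 in limma. Of all genes 35.5% had such a p in either direction, and 17.2% had it with a higher level in the apex. With the block *TMC1* was called lower, as were 5.49% of all genes. The other 5 members were called higher with the block too, against 9.57% of all genes. The median log2 difference of the 7 members was 1.18, against -0.01 over all genes tested. Between middle and base 2 of 7, *TMC2* and *CIB2*, were called higher, against 2.93% of all genes (4.39% in either direction), and 5 with the block, against 7.63%. Between apex and middle 0 of 7 were called, against 0.0613% of all genes, and 3 had an unadjusted p under 0.05 in limma, as had 9.01% of all genes. With the block *TMC2* and *CIB2* were called higher and *TMC1* lower in the apex than in the middle, against 1.43% and 0.682% of all genes. The ranges of apex and base did not overlap for 6 of 7 genes, against 42.7% of all genes tested, those of middle and base for 4 (30.7%), and those of apex and middle for 3 (12.8%).

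**Figure D4:**
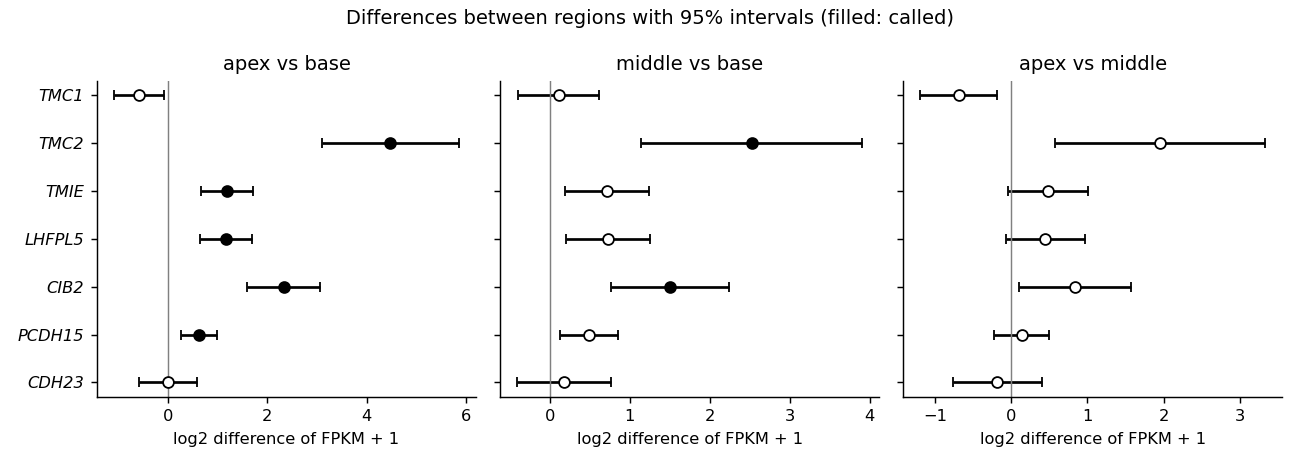
Log2 difference of FPKM + 1 (x axis) for each of the 7 genes in the comparisons of apex with base, middle with base and apex with middle; points are estimates of limma over 9 libraries, bars are 95% intervals, and filled points were called. *TMC2* lies at 4.48 between apex and base, *CDH23* at 0.00 and *TMC1* at -0.57.

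The calls between middle and base were lost in many fits with 1 library fewer. In the 9 fits that each left out 1 library, the log2 difference of *TMC2* ran from 1.97 to 3.31, against 2.52 with all, and that of *CIB2* from 1.25 to 1.81, against 1.5 with all. Leaving out an apex library cannot move these differences, but changes the shared estimate of spread. The call of *TMC2* was kept without base replicate 3 (adjusted p = 0.00862) and without middle replicate 2 (0.0457 from limma). This call was lost without base replicate 1 (0.144), base replicate 2 (0.112), middle replicate 1 (0.0761), middle replicate 3 (0.142), apex replicate 1 (0.0622), apex replicate 2 (0.052) or apex replicate 3 (0.0573 from limma). That of *CIB2* was lost without base replicate 1 (0.112), base replicate 2 (0.0971), middle replicate 1 (0.0565), middle replicate 3 (0.107) or apex replicate 1 (0.0501 from limma). Without replicate 2 of every region, the libraries with the highest neuron markers, 5 members were called higher in the apex than in the base, against 6.12% of all genes, and 0 between middle and base, where *TMC2* had a log2 difference of 2.21 (limma adjusted p = 0.106) and *CIB2* one of 1.51 (limma adjusted p = 0.0666). In that fit 0.545% of all genes were called higher in the middle than in the base. At an unadjusted p under 0.05, limma gave 5 members higher there, against 13.7% of all genes.

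The order of levels also changed along the organ. In the base, *LHFPL5* (15.5 ± 4.21), *CIB2* (11.2 ± 4.99) and *CDH23* (9.60 ± 2.38) had the highest mean FPKM (SD, n = 3), each overlapping the next of these 3. *PCDH15* (3.58 ± 0.764), *TMC2* (2.96 ± 3.94) and *TMC1* (2.64 ± 0.695) followed, with *PCDH15* below the range of *CDH23* and each of the 3 overlapping the next, and the range of *TMIE* (0.398 ± 0.155) lay below that of *TMC1*. In the middle the order was *CIB2* (33.0 ± 11.4), *LHFPL5* (26.4 ± 6.93), *TMC2* (16.0 ± 5.44), *CDH23* (11.1 ± 3.08), *PCDH15* (5.38 ± 0.486), *TMC1* (2.98 ± 1.06) and *TMIE* (1.32 ± 0.566). The ranges of neighbors overlapped from *CIB2* down to *CDH23*, but within every middle library each gene stood above the next in this order. In the apex *TMC2* (64.6 ± 20.1) and *CIB2* (58.4 ± 13.8) led with overlapping ranges, and *TMC2* was the higher in all 3 libraries. *LHFPL5* (35.9 ± 6.09) stood apart from both sides, *CDH23* (9.68 ± 2.87) overlapped *PCDH15* (6.06 ± 1.12), and *TMIE* (2.24 ± 0.726) overlapped *TMC1* (1.43 ± 0.323). By mean FPKM *TMC2* thus went from rank 5 in the base to rank 1 in the apex, and *TMC1* from rank 6 to rank 7. The base ranks of these 2 genes rest on base replicate 3, since *TMC2* stood above *TMC1* in only 1 of the 3 base libraries.

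Levels moved together between replicates as well. Replicate 2 was the lowest of its region in 19 of 21 combinations of gene and region, and replicate 3 the highest in 18 of 21. For the 9 hair cell markers the same held in 27 and 25 of 27 combinations. The share of all genes with this pattern was not tested, so it cannot be taken as particular to these genes. Replicate 2 was also the one with the highest neuron markers, and what set these replicates apart was not tested. Once region means were taken out, same-numbered libraries correlated with r between 0.368 and 0.660 across all 13045 genes (9 pairs), which are not independent replicates.

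Because the hair cell markers rose toward the apex, each gene was also read against their mean on the log2(FPKM + 1) scale within the same library. In ratios of apex to base, *TMC2* (21.8) stood above all 9 markers, *TMIE* (5.62), *CIB2* (5.23) and *LHFPL5* (2.32) lay within their range of 1.89 to 6.89, and *PCDH15* (1.70), *CDH23* (1.01) and *TMC1* (0.543) lay below it. Relative to the marker mean, *TMC2* was -1.83, -2.19 and -0.51 in the base, -0.10, -0.18 and -0.08 in the middle and 0.88, 1.06 and 1.27 in the apex. It rose by 2.58 from base to apex, and by 3.16 with 0.1 added in place of 1, since its base values are low. *TMC1* was -1.05, -1.01 and -1.46 in the base, -2.20, -2.16 and -2.23 in the middle and -3.62, -3.52 and -3.81 in the apex, so it lost 2.47 against the markers. For both genes no region overlapped another, with an exact permutation p of 0.00119 for the trend. The same held for *CDH23* and *LHFPL5*, so it was not particular to the pore genes. The marker mean itself rose toward the apex, so a gene with a level FPKM falls against it. The p of *TMC1* therefore includes the rise of the markers as well as its own change. The share of all genes that would reach such a p was not tested.

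*CDH23*, not called in FPKM, fell against the markers, from 0.36 ± 0.24 in the base to -0.60 ± 0.08 and then -1.54 ± 0.11 in middle and apex (SD, n = 3 each). *PCDH15* went from -0.84 ± 0.35 to -1.49 ± 0.41 and -2.12 ± 0.10, and *LHFPL5* from 0.99 ± 0.16 to 0.59 ± 0.06 and 0.27 ± 0.08 (SD, n = 3 each). For the trend the exact permutation p was 0.00119 for *CDH23* and *LHFPL5* and 0.00357 for *PCDH15*. For *CDH23*, whose FPKM did not differ between apex and base, this p restates the rise of the markers and cannot show a fall of its own. *LHFPL5* and *PCDH15* rose in FPKM, so their falls mean only that they rose by less than the marker mean. *CIB2* went from 0.51 ± 0.05 to 0.87 ± 0.06 and 0.94 ± 0.12 (exact permutation test, p = 0.0214, n = 3 each). *TMIE* went from -2.54 ± 0.50 to -2.97 ± 0.25 and -3.26 ± 0.11 (exact permutation test, p = 0.0214, n = 3 each). For *CIB2* the exact p was 0.0607 without any one base library, apex replicate 2 or apex replicate 3. For *TMIE* it was 0.0607 without base replicate 1 or 2 or apex replicate 2 or 3, 0.0648 within replicate numbers, and 0.831 with 0.1 added in place of 1, where its mean difference between apex and base was 0.05. The exact p of *CIB2* and *TMIE* thus crossed 0.05 with these settings. The other 5 genes kept their direction and an exact p of at most 0.0222 under each alternative tried. For *TMC1*, *CDH23*, *LHFPL5* and *PCDH15* the rise of the markers was part of every setting, so this cannot show a change of their own. The markers themselves differed in their change between apex and base on the log2(FPKM + 1) scale. It ran from 0.90 (SE 0.14) for *MYO6* and 1.16 (SE 0.13) for *CABP2* to 2.62 (SE 0.33) for *SLC17A8* and 2.68 (SE 0.42) for *OTOF*. A value relative to their mean therefore depends on the markers chosen, and the level of a marker per hair cell was not tested.

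**Figure D5:**
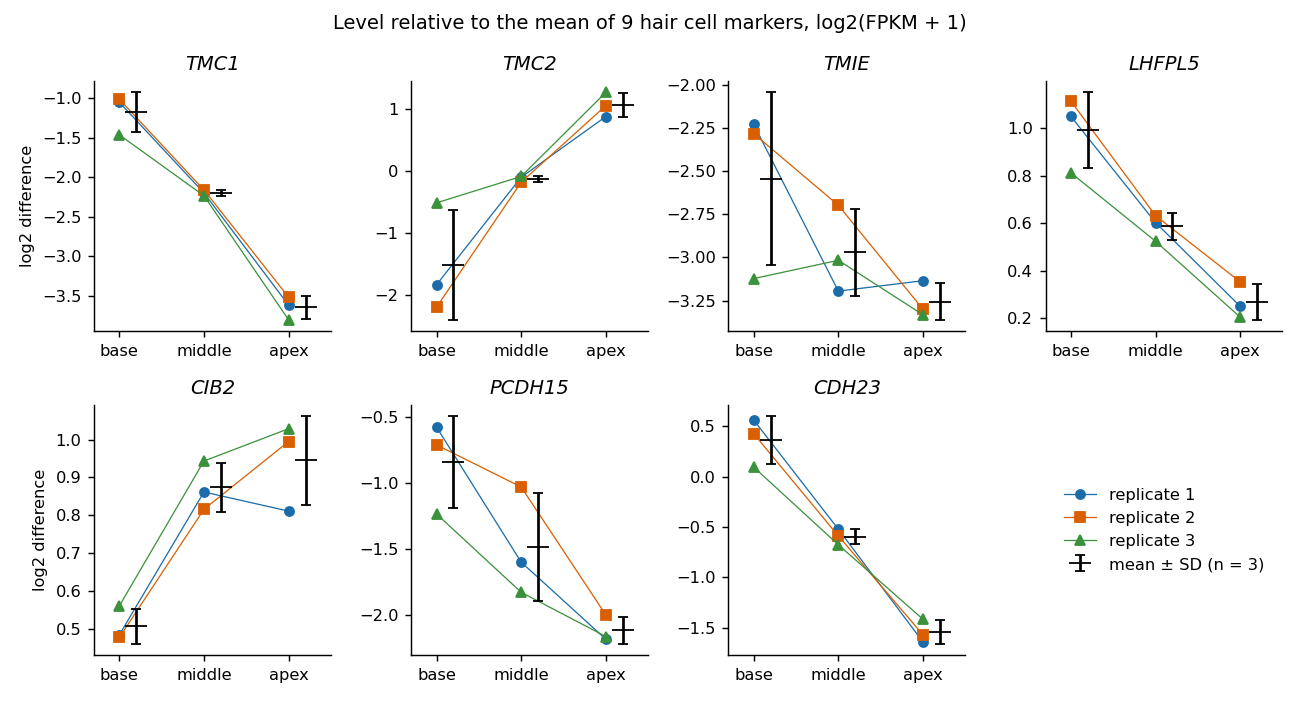
Level of each gene relative to the mean of 9 hair cell markers in the same library, as a difference on the log2(FPKM + 1) scale (y axis, with its own range in each panel), by region; lines join same-numbered libraries, and black bars give the mean and SD of 3 libraries. *TMC2* climbs from a mean of -1.51 to 1.07, *TMC1* drops from -1.18 to -3.65 and *CDH23* from 0.36 to -1.54.

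With the marker mean as a covariate in limma, 0 of 7 members and 0 of 13045 genes were called between apex and base. Of the members 2 had an unadjusted p under 0.05 in that fit, both lower in the apex, as had 2367 of all genes in either direction. The log2 difference of *TMC2* between apex and base was then 0.87 (adjusted p = 0.492) and that of *TMC1* -1.83 (limma adjusted p = 0.12). The marker mean was higher in every apex library than in every base library, so this fit could hardly separate region from marker level. The values with the covariate therefore cannot show what part of either difference went with hair cell content, which was not tested.

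The relatives of the channel genes were called with the block or not at all. Of 6 other TMC genes listed, 4 were matched and tested, *TMC3*, *TMC5*, *TMC6* and *TMC7*, and 0 were called in any comparison by limma without the block. Their log2 differences between apex and base ran from -0.46 for *TMC3* to 0.47 for *TMC5*, with adjusted p of 0.193 and 0.0649 from limma, and *TMC5* alone had an unadjusted p under 0.05. With the block, *TMC5* was called higher (limma adjusted p = 0.0107) and *TMC3* lower (limma adjusted p = 0.0416) in the apex than in the base. Of 8 relatives of *CIB2* and *LHFPL5*, 6 were matched and 5 tested, and 0 were called with or without the block. Their log2 differences between apex and base ran from -0.33 to 0.36. Of them 1, *LHFPL2*, had an unadjusted p under 0.05 in limma between apex and base, against the same 35.5% of all genes. The relative that was not tested, *CIB3*, had an FPKM of at most 1.42 in any library. *TMC6* and *TMC7* had mean FPKM of 19.3 and 28.3 in the base, above *TMC1* in the same pieces.

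A list of 12 further genes held genes that work with the channel and also genes of other channels, *PIEZO1*, *PIEZO2* and *TMEM63B*. Of the 12, 8 were matched and tested. Of these, 4 were called higher in the apex than in the base and 0 lower, against 7.15% and 4.66% of all genes, and the median log2 difference was 0.84, against -0.01 over all genes. *LOXHD1*, which in mouse is needed for transduction in mature hair cells, had a ratio of apex to base of 4.41 (log2 difference 1.92, adjusted p = 0.00181 from limma). *LRTOMT*, for which RefSeq (GRCg7b) lists the synonym TOMT, the name of a methyltransferase-like protein needed in mouse to bring TMC1 to the bundle, had a ratio of 3.12 (limma adjusted p = 0.0412). A second row with that symbol was listed at 0 in all libraries. *MYO7A*, the myosin that anchors the upper end of the tip link, had a ratio of 3.00 between apex and base and 2.25 between middle and base (adjusted p = 0.00448 and 0.0345 from limma). *ATP2B2*, the calcium pump that clears calcium entering through the channel, had ratios of 1.80 and 1.79 in these comparisons (adjusted p = 0.00415 and 0.0156 from limma), and apex and middle had like levels of 20.3 ± 1.20 and 20.2 ± 3.74 FPKM (SD, n = 3 each). *USH1C*, a scaffold protein at the upper end of the tip link, was called with the block alone, higher in the apex than in the base (log2 difference 0.88, limma adjusted p = 0.0574, or 0.00102 with the block) and than in the middle (0.59, limma adjusted p = 0.616, or 0.0354 with the block). With the block 5 of these 8 genes were called higher in apex than base, 4 in middle than base and 2 in apex than middle, against 9.57%, 7.63% and 1.43% of all genes. *MYO1C*, *PIEZO1* and *TMEM63B* were not called in any comparison with or without the block.

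The genes whose pattern over the 9 libraries was most like that of each member were listed by Pearson correlation of log2(FPKM + 1), as a description. The libraries that share a number deviate together, and hair cell content differs between regions, so these values do not come from independent points. For *TMC2* they were *SLC6A4*, *OTOF*, *CEP41*, *RGS9BP* and *ELMOD1* (r from 0.993 to 0.997), where *OTOF* encodes otoferlin of the hair cell synapse. For *CIB2* they were *SH2D4B*, *GRIK4*, *FGFRL1*, *RGS9BP* and *GIPC3* (r from 0.997 to 0.999), and for *LHFPL5* they were *GFI1*, *BRN3*, *TMEM255B*, *KREMEN1* and *GPX2* (r from 0.994 to 0.998), where *GFI1* is a transcription factor of hair cells. The list of *TMIE* was *FBP2*, *PICK1*, *JAG2*, *ARMC4* and *FAM81A* (r from 0.972 to 0.980), and that of *PCDH15* held *MICALL1*, *DNAJC16*, *MYO15A* and *NDST1* (r from 0.954 to 0.988), with *MYO15A* a myosin of stereocilia tips. Likeness was lower for *TMC1*, with *RADIL*, *ZBTB40*, *CCK*, *HTR2B* and *KCTD4* (r from 0.912 to 0.961), and for *CDH23*, with *GSS*, *NATD1*, *KIF19*, *AVENAII* and *C2ORF88* (r from 0.939 to 0.955). Among the members themselves r was 0.891 or more between any of *TMC2*, *TMIE*, *LHFPL5*, *CIB2* and *PCDH15*, 0.683 between *TMC1* and *CDH23*, and between -0.35 and 0.474 for the other pairs.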

How the data were processed

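RNA-seq was performed on base, middle and apex pieces of the basilar papilla, and libraries were grouped by their titles. Paired-end reads of 101 bp were aligned by the authors to galGal5 in STAR 2.5.4b with at most 3 mismatches. Cuffdiff 2.2.1, with genes of Ensembl release 91, gave the deposited FPKM, 1 value for each gene in each library. The scaling between libraries in Cuffdiff is not given in the sources used here. Judged by the step size of low values, the deepest library had about 1.61 times the fragments of the shallowest. The read pairs that the paper reports per replicate, which count reads before alignment, span a narrower range, so this estimate is rough. No counting interval was computed.

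limma 3.58.1 in R 4.3.3 was run on log2(FPKM + 1) with region as a factor and an intensity trend, in place of the test in Cuffdiff, with two-sided p-values adjusted over 13045 genes. The FDR, fold and FPKM thresholds follow the methods of the study. Orders were tested by exact permutation of the Jonckheere-Terpstra statistic over all 9 libraries, with raw p. This treats same-numbered libraries as exchangeable with the others. Permuted within replicate numbers, the exact p of the FPKM trend was 0.00926 for *TMC2*, *CIB2*, *LHFPL5* and *TMIE*. It was 0.0185 for *PCDH15* and 0.0741 for *TMC1*. The named genes were all members, the list genes called in any comparison, and the 5 genes most correlated with each member, of which 1 is not reported here. Members, lists and tests were chosen with earlier results of these data known.

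The titles number the replicates of each region, and libraries with the same number were taken as pairs. The methods give 12 chickens for 3 replicates of each region, which implies shared chickens without stating it, and all 9 same-numbered pairs had a correlation of deviations of at least 0.368. The study names no block, so the values with it stand beside the others where a call changes. Alternatives covered the pseudocount, filters, scaling, trend, block, marker covariates, fold criteria and libraries left out. The alternatives without replicate 2 of every region and with a neuron marker covariate were chosen after seeing the data. Symbols not matched were *ATOH1*, *STRC* and *OCM* among hair cell markers and *TOMT*, *PKHD1L1*, *USH1G* and *PIEZO2* in the list of partners and other channels.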

Additional observations from a re-analysis of the deposited data

How the results depend on the processing

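Between apex and base, 5 members were called by limma, and the count was between 4 and 6 under the alternatives other than the hair cell marker covariate, which gave 0. Between middle and base the count of 2 stood against 4.39% of all genes. It became 1 with no filter on low values, and 0 with the 6 libraries compared alone or with the hair cell marker covariate. It was 0 without replicate 2 of every region, where 0.545% of all genes were called higher. With the replicate block it was 5, against 7.63% of all genes called higher, and it was also 5 with the neuron marker covariate. Leaving out 1 library gave between 0 and 3. Where no share of all genes stands beside a count here, the count cannot be taken as particular to the members. Between apex and middle the count of 0 became 3 with the replicate block, and stayed at 0 when any 1 library was left out. The replicate block changed no other call of a member than those given above.

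In the exact permutation test relative to hair cell markers, the p of *TMIE* was 0.0648 within replicate numbers (the replicate block), 0.831 with a pseudocount of 0.1, 0.0738 with the marker *SLC17A8* left out of the mean and 0.178 without replicate 2 of every region, where that of *CIB2* was also 0.178. Leaving out 1 library gave p between 0.0107 and 0.0607 for *TMIE*, between 0.00357 and 0.0607 for *CIB2*, and between 0.0286 and 0.193 for the order of *TMC1*. For the order of *CDH23*, the p lay between 0.611 and 1 in the exact test, with the direction turning in 3 of 9 fits.

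Some log2 differences from limma changed sign, those with the hair cell marker covariate in a fit that could hardly separate region from marker level. With the hair cell marker covariate, those between apex and base were -0.27 for *LHFPL5*, -0.031 for *PCDH15* and -1.53 for *CDH23*, those between middle and base were -0.64 for *TMC1*, -0.14 for *LHFPL5* and -0.73 for *CDH23*, and those between apex and middle were -0.14 for *LHFPL5* and -0.13 for *PCDH15*. For *CDH23* between apex and base the value was -0.052 with quantile normalization, -0.053 with the neuron marker covariate, and between -0.19 and 0.20 with 1 library left out. Between apex and middle *CDH23* lay between -0.38 and 0.015 in such fits. For *TMC1* between middle and base the value was -0.0019 with quantile normalization and between -0.085 and 0.30 with 1 library left out. *TMC1* between apex and base was called with quantile normalization (adjusted p = 0.0419 from limma) and with the neuron marker covariate (adjusted p = 0.0335 from limma). Of the other values under the alternatives, 361 log2 differences kept their direction and their side of the threshold. A further 284 counts and exact tests were taken as kept. For exact tests this meant the same direction and side of the threshold. For counts of members it meant only a number within 1.5 times the main one, with directions not compared.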
